A study of Mus musculus with 2 samples.

Results

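The genes of the insulin-like growth factor (IGF) system were examined in perigonadal WAT of PeriA Tg mice and of WT mice: the ligands *Igf1* and *Igf2*, the receptors *Igf1r* and *Igf2r*, and the binding proteins *Igfbp2* to *Igfbp7*. These 10 genes were taken from their names and not from their values, and they are among 18193 genes that have at least 1 probe set of their own on the array. They have 28 of the 34945 probe sets that are annotated to 1 gene symbol. PeriA Tg mice are heterozygous for human perilipin A under the aP2 promoter/enhancer, and WT mice are littermates without it. All mice were female, of C57BL/6 background and 30 weeks old, had been fed a HFD and were fasted overnight before harvest. The aP2 promoter is used as an adipocyte promoter, so that the transgene is placed in fat cells, whereas the RNA came from the whole fat pad. RNA of 3 mice was pooled for each genotype, and each pool was hybridised to 1 Affymetrix mouse genome array. Without replicates, no value has an error over mice and no comparison of Tg with WT could be tested.

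The authors deposited 1 linear signal for each probe set, scaled so that both arrays have the same trimmed mean. The signal log ratio is log2 (Signal of Tg/Signal of WT), and the thresholds of the methods, over 0.3 and under -0.3, were used. Probe sets with a signal of 98.2 or more on at least 1 array, which is the median of all signals, passed the filter, and each gene was read from its brightest probe set. The median signal was 95.4 on the Tg array and 101.1 on the WT array. Within the 5260 genes that have several passing probe sets, the signal log ratios varied with a pooled SD of 0.41. This SD is larger than the threshold of 0.3 and describes readings of the same pools. Probe sets differ in how brightly they bind, so that signals are compared between genotypes and not between genes.

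IGF-I and IGF-II are secreted growth factors related to insulin. IGF-I is made in liver and in many other tissues under growth hormone, and in fat it acts on the growth and differentiation of preadipocytes through the IGF-I receptor, a tyrosine kinase that resembles the insulin receptor. The type 2 receptor binds IGF-II and carries it to lysosomes, where it also delivers enzymes tagged with mannose 6-phosphate. Most IGF outside cells is held by binding proteins, which carry it, lengthen its life and keep it from the receptor until proteases release it. In the mouse, *Igf2* is expressed mainly from the paternal copy and *Igf2r* mainly from the maternal copy. *Igfbp2* and *Igfbp5* are neighbours in the RefSeq gene order, as are *Igfbp3* and *Igfbp1*, and *Igf2* lies next to *Ins2*, an insulin gene.

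On their brightest probe sets, all 10 genes passed the filter. *Igf2*, *Igfbp2* and *Igfbp7* had signal log ratios over 0.3, *Igf2r* was under -0.3, and the other 6 genes lay between. Over all 11587 genes that passed the filter, 16.6% were over 0.3 and 16.9% were under -0.3, and 3 and 1 of 10 genes are too few to be set apart from these shares. The median signal log ratio of the IGF genes was 0.14, against 0.02 over all genes. This small difference depended on the reading: the medians were 0.05 for 8 of the IGF genes and 0.04 for all genes with a stricter filter at 470.5, and -0.01 for the 25 passing probe sets of the IGF genes and -0.003 for all passing probe sets. Their values ran between -0.38 and 0.46, and none was past a 2-fold change in either direction, as 2.89% of all genes were. Because the tissue was measured as a whole, fewer cells of a type and less RNA per cell cannot be told apart in any of these values.

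**Figure D1:**
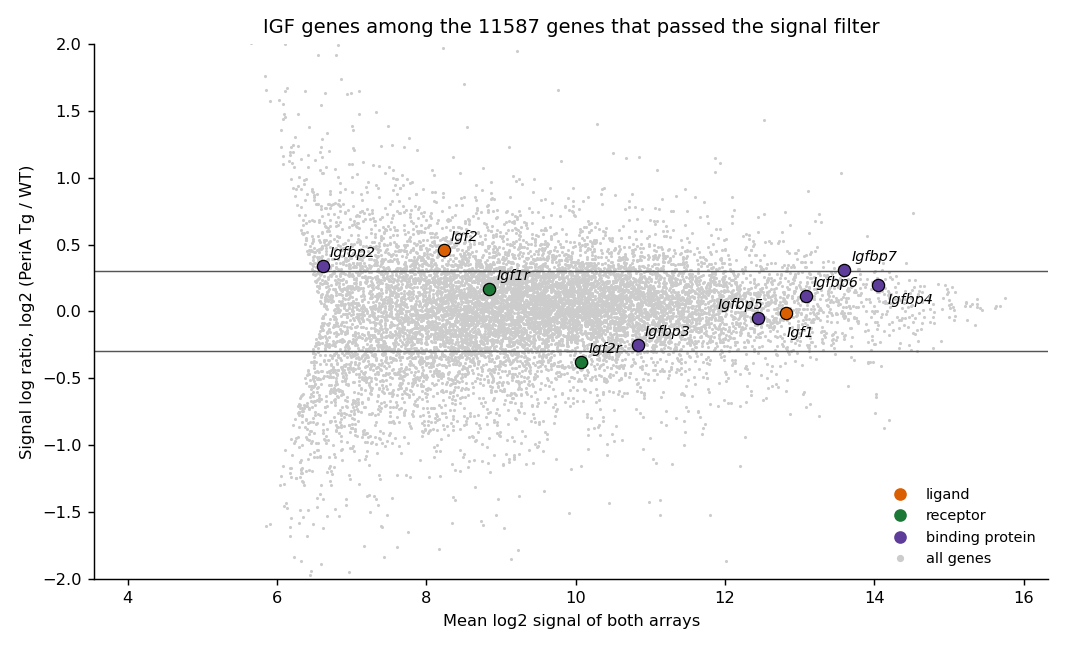
Signal log ratio, log2 (PeriA Tg/WT), against the average of the log2 signals on both arrays for the 11587 genes that passed the filter (grey) and the 10 IGF genes (coloured by role), with 1 array of pooled RNA per genotype. Solid lines mark 0.3 and -0.3, and 47 genes beyond 2 or -2 are not drawn. The IGF genes lie within the cloud of all genes, with *Igf2*, *Igfbp2* and *Igfbp7* above the upper line and *Igf2r* below the lower one.

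*Igf1*, the growth factor through which growth hormone acts on many tissues, had a signal of 7183 in Tg WAT and 7256 in WT WAT on its brightest probe set (1452014_a_at), a signal log ratio of -0.01. Its other probe sets were all on the lower side in Tg. They had 5459 in Tg and 5997 in WT (1434413_at), 4109 in Tg and 4373 in WT (1419519_at), and 4288 in Tg and 5907 in WT (1437401_at). Their signal log ratios were -0.14, -0.09 and -0.46. All 4 probe sets of *Igf1* were thus brighter in WT, and 1 of them was under -0.3. Macrophages and adipocyte progenitors are known to make IGF-I along with adipocytes. Of 10 macrophage markers, 4 were under -0.3 and 1 was over 0.3, and their summed signal was 22592 in Tg and 27115 in WT. Summed signals, here and below, weigh the brightest markers most and can differ in direction from the median. The 10 markers of progenitors and fibroblasts had a median of -0.08 but summed signals of 105199 in Tg and 101965 in WT. The part of these cells in the *Igf1* signal was not tested.

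*Igf2*, the fetal growth factor that is expressed at low level in most adult mouse tissues, had 352.1 in Tg and 256.2 in WT (1448152_at). Its signal log ratio of 0.46 was the highest of the 10 genes, above those of 92.1% of all genes, and corresponds to a 1.37-fold higher signal in Tg. The other probe set of *Igf2* (1415931_at) had 4.10 in Tg and 4.50 in WT and was far under the filter. Both were designed from the same reference sequence, so that the gene was read here by 1 probe set only. *H19*, the imprinted noncoding RNA that shares enhancers with *Igf2*, had 7237 in Tg and 7167 in WT, a signal log ratio of 0.01. *Igf2bp3*, an RNA-binding protein named after *Igf2* mRNA, had 147.4 in Tg and 147.2 in WT, and *Igf2bp1* did not pass the filter. Of the list of 5 genes that holds *H19*, *Igf2bp1*, *Igf2bp2*, *Igf2bp3* and *M6pr*, *Igf2bp2* was not analysed here, and the 3 that passed were all between the thresholds.

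**Figure D2:**
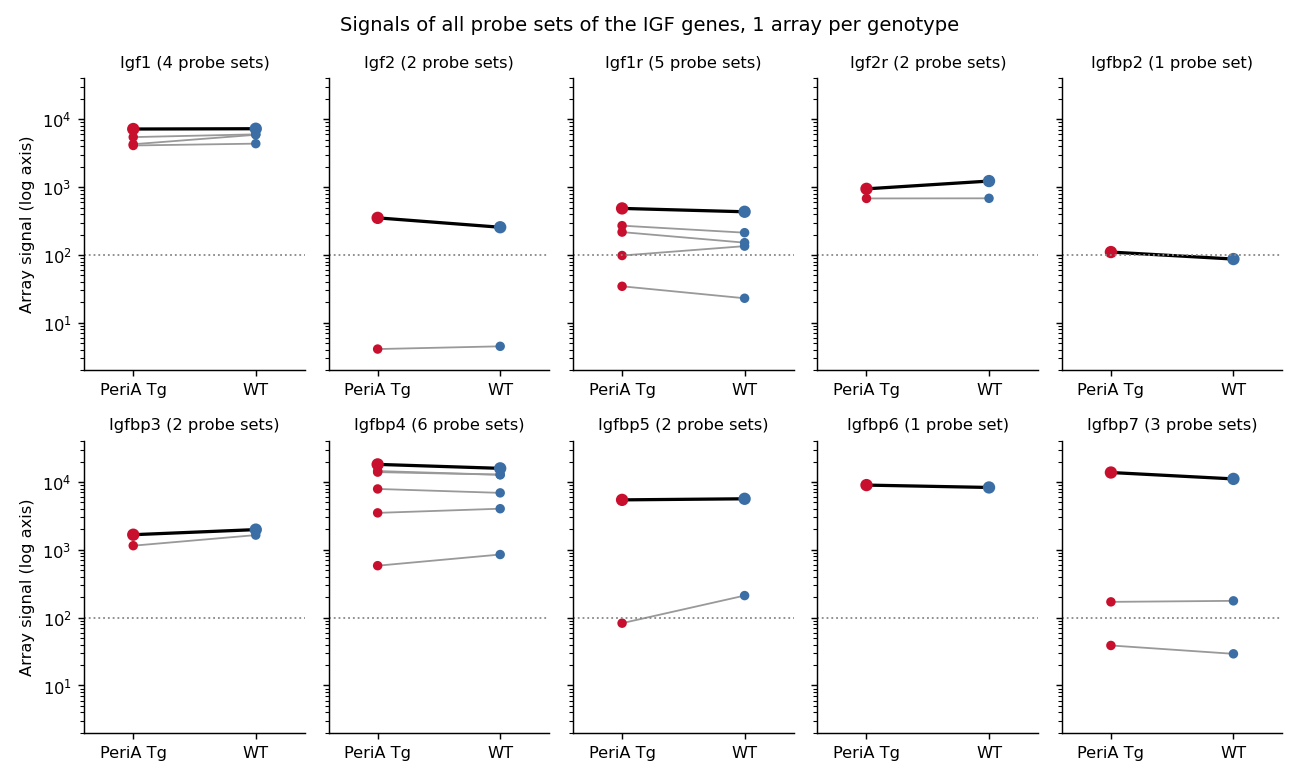
Array signal on a log axis for every probe set of the 10 IGF genes, with PeriA Tg (red) on the left and WT (blue) on the right of each panel. A line joins the values of 1 probe set, the thick line is the brightest probe set of the gene, and the dotted line is the filter at 98.2. Most lines are close to level, and the steepest is that of the dimmer *Igfbp5* probe set, at 82.9 in Tg and 211.5 in WT.

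The receptors lay on opposite sides of 0. *Igf1r*, the tyrosine kinase that transmits the signal of both ligands, had 485.3 in Tg and 433.1 in WT on its brightest probe set (1452982_at), a signal log ratio of 0.16. The next probe sets had 270.2 in Tg and 213.0 in WT (1428967_at, 0.34) and 217.2 in Tg and 151.8 in WT (1426565_at, 0.52). Another had 98.1 in Tg and 134.9 in WT (1446303_at, -0.46), and the last was under the filter at 34.5 in Tg and 23.0 in WT. Of the 4 probe sets of *Igf1r* that passed, 3 were higher in Tg and 1 was lower, so that its direction depends on the probe set. The lower one passed only through its WT signal, as its Tg signal of 98.1 was just under the filter of 98.2. In 2 pairs, 4 of the 5 probe sets of *Igf1r* share a source sequence, and both pairs had higher signals in Tg.

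*Igf2r*, which clears IGF-II and sorts lysosomal enzymes, had 943.3 in Tg and 1228 in WT on its brightest probe set (1424112_at), a signal log ratio of -0.38 and the lowest of the 10 genes, with 13.1% of all genes below it. The other probe set (1424111_at) had 680.9 in Tg and 683.8 in WT, a value of -0.01. The lower signal in Tg was therefore seen on 1 of 2 probe sets. One more probe set, annotated to *Igf2r* and to its antisense partner *Airn* together, had 67.5 in Tg and 63.7 in WT, under the filter. *M6pr*, the other mannose 6-phosphate receptor, had 6408 in Tg and 5351 in WT, at 0.26, while -0.34 was read from its other probe set. *Ctsd*, a lysosomal protease that such receptors deliver and that can cut binding proteins, had 17659 in Tg and 19909.6 in WT.

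Among the binding proteins, 2 of 6 genes were over 0.3, none was under -0.3, and the median was 0.15. For all genes the shares past these thresholds were 16.6% and 16.9%, around a median of 0.02, and 6 genes are too few to differ. Read by probe set, the binding proteins did not lean upward. Of their 14 passing probe sets, 2 exceeded 0.3, 3 fell below -0.3, and 7 lay on each side of 0. The middle value was 0.03. *Igfbp7*, a relative with low affinity for IGFs that is abundant in vessel walls, had 13788 in Tg and 11099 in WT (1423584_at). Its signal log ratio of 0.31 was just past the threshold, and it was 0.25 after quantile normalization. The next probe set had 170.9 in Tg and 176.9 in WT (1423585_at, -0.05), and the dimmest was under the filter at 38.9 in Tg and 29.3 in WT. Of 8 endothelial markers, none was over 0.3 and 1 was under -0.3, with a median of -0.10 and summed signals of 9356 in Tg and 10469 in WT. Of 6 smooth muscle and pericyte markers, 1 was over 0.3 and 2 were under -0.3, with a median of -0.15 and summed signals of 30780.4 in Tg and 33745 in WT.

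*Igfbp2*, which is secreted by preadipocytes and regulated by leptin in the liver of mice, had 110.3 in Tg and 87.0 in WT on its only probe set (1454159_a_at). Its signal log ratio of 0.34 rests on signals near the filter of 98.2, which the WT signal did not reach. With a pseudocount of 25.1 the value was 0.27, inside the thresholds. *Lep* itself, the leptin gene, had 13305 in Tg and 20770.4 in WT.

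*Igfbp4*, an inhibitory binding protein that is strongly expressed in adipose tissue, had 18169.5 in Tg and 15884 in WT on its brightest probe set (1437405_a_at), a signal log ratio of 0.19. The next 3 by brightness had 0.18, 0.12 and 0.19, at signals of 7892 to 14496 in Tg and 6909 to 12822 in WT. The dimmest probe sets went the other way, with 3504 in Tg and 4036 in WT (1421992_a_at, -0.20) and 583.6 in Tg and 852.3 in WT (1421991_a_at, -0.55). These 2 were designed from 1 source sequence and the other 4 from 2 further sequences, so that *Igfbp4* split by source: both probe sets of 1 sequence were lower in Tg, and all 4 of the others were higher. *Igfbp6*, which prefers IGF-II over IGF-I, had 8996 in Tg and 8302 in WT on its only probe set (1417933_at), a value of 0.12.

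*Igfbp5*, a binding protein that adheres to the extracellular matrix, had 5449 in Tg and 5652 in WT on its brightest probe set (1452114_s_at), a signal log ratio of -0.05. The suffix of this probe set marks probes shared with other transcripts. The other probe set (1422313_a_at) had 82.9 in Tg and 211.5 in WT. At -1.35, it was the only one of the 25 passing probe sets of the 10 genes past a 2-fold change, as 4.35% of all passing probe sets were, and its Tg signal was under the filter. *Igfbp3*, the main carrier of IGF-I in blood, had 1670.1 in Tg and 1986 in WT (1423062_at, -0.25). Its other probe set had 1151 in Tg and 1648 in WT (1458268_s_at, -0.52). Both readings of *Igfbp3* were thus lower in Tg, and the dimmer one was under -0.3. The suffix of the dimmer one also marks probes shared with other transcripts.

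**Figure D3:**
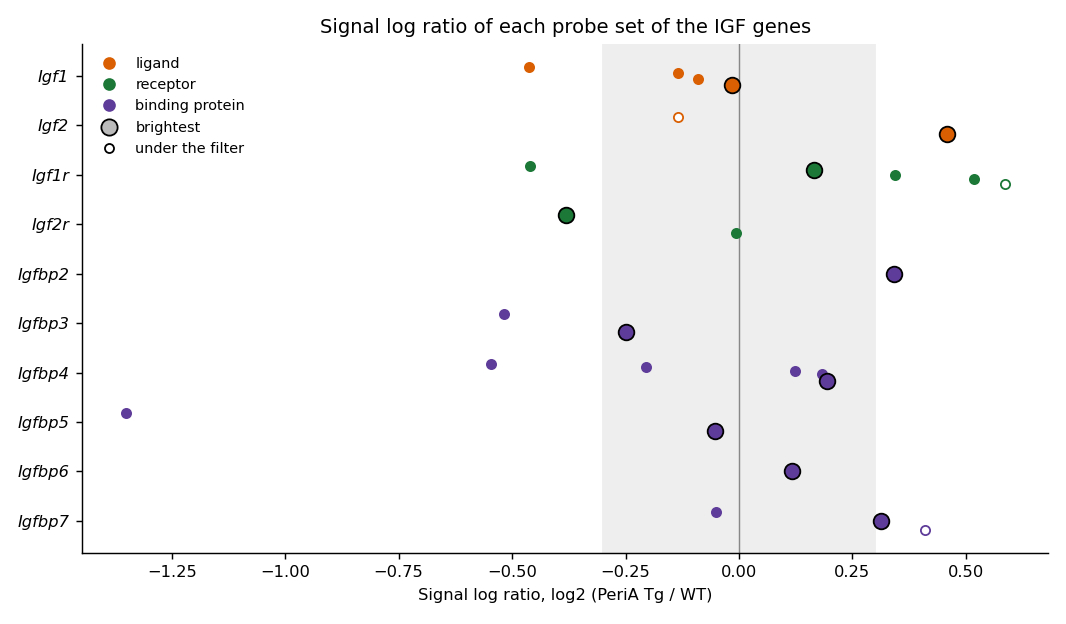
Signal log ratio, log2 (PeriA Tg/WT), of all 28 probe sets of the 10 IGF genes, coloured by role. Large points with a black edge are the brightest probe set of each gene, open points were under the filter on both arrays, grey shading spans -0.3 to 0.3, and points are offset vertically only to separate them. The probe sets of *Igf1*, *Igf2r*, *Igfbp3* and *Igfbp5* all lie left of 0, whereas those of *Igf1r*, *Igf2*, *Igfbp4* and *Igfbp7* lie on both sides. For *Igf2*, the point left of 0 is an open one.

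Counted by probe set, 25 of the 28 passed the filter, of which 5 were over 0.3 and 6 were under -0.3. Over all 20393 passing probe sets with 1 symbol, 16.9% were over 0.3 and 21.9% were under -0.3. Several probe sets passed for 7 of the 10 genes: 4 of these genes had all of them below 0, none had all of them above 0, and *Igf1r*, *Igfbp4* and *Igfbp7* were mixed. Among the 5260 genes with several passing probe sets, these lay all below 0 in 25.3% and all above 0 in 23.3%, and 7 genes are too few to be set apart from these shares. The distance between the lowest and the highest signal log ratio of a gene was 0.27 for *Igfbp3*, 0.36 for *Igfbp7*, 0.37 for *Igf2r*, 0.45 for *Igf1*, 0.74 for *Igfbp4*, 0.98 for *Igf1r* and 1.30 for *Igfbp5*. Each of these distances, except that of *Igfbp3*, is larger than 0.3. For spiked bacterial poly-A transcripts, carried through labelling beside the sample, the 5' minus 3' difference in signal log ratio was below 0 in all 8 pairs, with a median of -0.55. These pairs read only the dap, lys, phe and thr transcripts, each by more than 1 pair, so that the 8 values are not independent. For 5 mouse transcripts with 5' and 3' control probe sets, the difference was below 0 in 4, with a median of -0.25 and a range of -1.67 to 0.31. The value above 0 was that of 18S ribosomal RNA. Controls spiked in at hybridisation had a median of -0.005. Where the probes of the IGF genes lie along their transcripts was not analysed here, and the part of this difference in the probe sets that were lower in Tg was not tested.

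The proteins that work with the IGFs were read from lists chosen by function. Of 11 other carriers, binding protein proteases and their inhibitors, 9 passed the filter, of which 1 was over 0.3 and 3 were under -0.3, with a median of -0.09. *Igfals*, the acid-labile subunit that joins IGF and *Igfbp3* protein into the large complex of the blood, had 871.1 in Tg and 1383 in WT, a value of -0.67. *Adam12*, a protease that cuts IGFBP-3 and IGFBP-5, had 728.9 in Tg and 1114 in WT (-0.61), and its other probe set had -1.37. *Pappa*, the protease that releases IGF from IGFBP-4, had 16.5 in Tg and 108.1 in WT, so that its value of -2.71 rests on a WT signal just over the filter. Of its inhibitors, *Stc1* had 113.6 in Tg and 76.8 in WT, so that it passed the filter only through its Tg signal. *Stc2* had 273.1 in Tg and 250.9 in WT, with -0.29 and -0.26 on its other probe sets. *Igfbp1*, the binding protein of liver that insulin represses, had 0.70 in Tg and 13.5 in WT and was not measurable.

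Of 12 other secreted proteins with an IGFBP-type domain, 10 passed, with 4 over 0.3, 3 under -0.3 and a median of 0.03. *Ccn4* had 128.4 in Tg and 14.8 in WT, the highest value of the list at 3.12, with a WT signal far under the filter. *Ccn2*, the connective tissue growth factor, had 867.1 in Tg and 508.6 in WT (0.77). *Ccn1* and *Ccn5*, matricellular proteins of the same family, were lower in Tg, with 1127 in Tg and 2193 in WT for *Ccn1* and 572.9 in Tg and 1080.1 in WT for *Ccn5*. *Htra1*, a secreted serine protease with such a domain, had -0.01.

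In the growth hormone receptor pathway, 7 of 8 genes passed, with 1 over 0.3, 1 under -0.3 and a median of 0.14. *Ghr*, the receptor upstream of *Igf1* transcription, had 22901 in Tg and 20584 in WT, and its other probe sets lay between -0.43 and 0.22. *Stat5b*, the transcription factor that carries the signal to the *Igf1* gene, had 860.9 in Tg and 873.6 in WT, a value of -0.02, and -0.74 on its dimmer probe set. *Socs2*, a feedback inhibitor of this receptor, had 335.9 in Tg and 427.3 in WT (-0.35), but its other passing probe sets ran between -1.30 and 0.13. *Socs3* had 569.2 in Tg and 396.6 in WT (0.52).

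Of 12 genes of the insulin receptor family, its substrates and adaptors, 10 passed, with 3 over 0.3, 1 under -0.3 and a median of 0.06. *Insr*, the insulin receptor, had 1285 in Tg and 764.6 in WT. Its signal log ratio of 0.75, with 1.45 on its other passing probe set, stood beside 0.16 for *Igf1r*. The other passing probe sets of *Igf1r* ran between -0.46 and 0.52. *Irs1*, the docking protein that both receptors phosphorylate, had 2920.1 in Tg and 1829 in WT (0.68), and *Irs2* had 772.6 in Tg and 671.5 in WT (0.20). *Grb10*, an imprinted adaptor that inhibits both receptors, had 3169 in Tg and 2554 in WT (0.31), and *Grb2*, the adaptor toward the Ras pathway, had 637.8 in Tg and 933.9 in WT (-0.55).

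**Figure D4:**
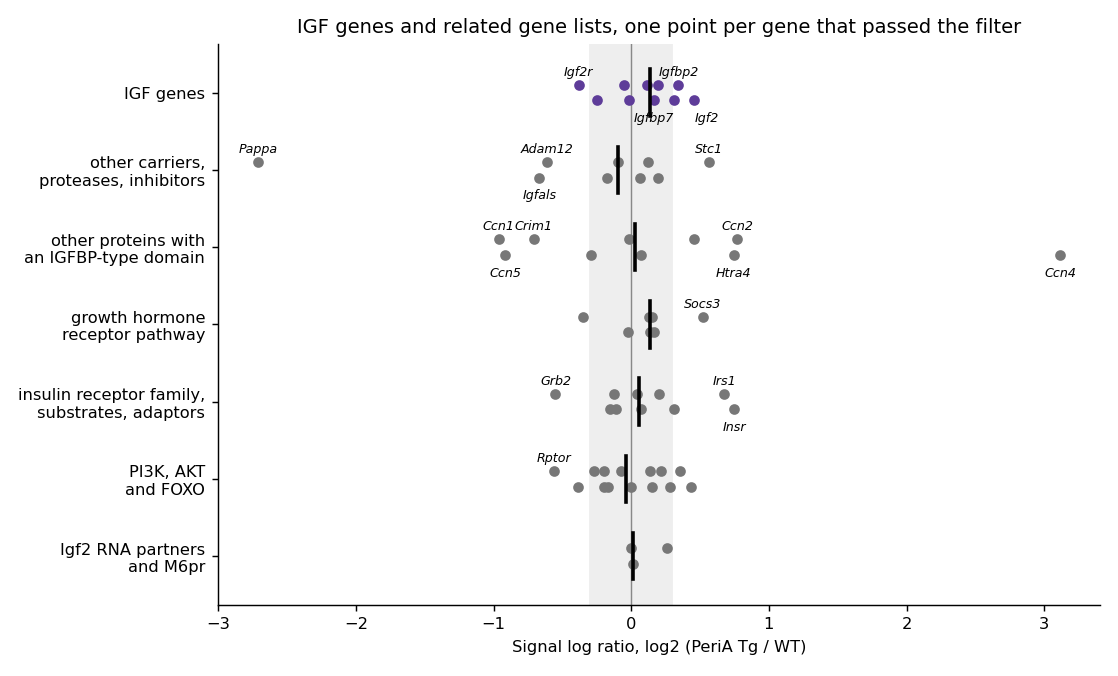
Signal log ratio, log2 (PeriA Tg/WT), of the 10 IGF genes (purple) and of the genes of 6 related lists that passed the filter (grey), one point per gene read from its brightest probe set. Each black bar is a list's median, grey shading spans -0.3 to 0.3, and points are offset vertically only to separate them. The IGF genes span -0.38 to 0.46, and genes such as *Insr*, *Irs1*, *Igfals*, *Ccn1* and *Ccn4* lie farther from 0.

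The labelled tissue was checked against its markers. All 8 adipocyte markers that are listed passed the filter, among them *Adipoq*, with 43803 in Tg and 41052 in WT, and their median was 0.10. All 8 brown adipocyte markers were over 0.3, as 16.6% of all genes were, with a median of 2.83 and a summed signal of 27604 in Tg and 4892 in WT. Of these markers, *Elovl3* and *Dio2* passed the filter only through their Tg signals, with 61.5 and 25.3 in WT. The 8 mesothelial markers, which belong to the covering of the perigonadal fat pad, all passed, with 3 over 0.3, a median of 0.25 and summed signals of 11099.9 in Tg and 9189 in WT. Of 6 markers of reproductive tract epithelium, 5 were under the filter and the sixth was *Krt18*, which the mesothelium also expresses. Of 6 skeletal muscle markers, 3 passed, of which 2 were under -0.3. These 2, *Pvalb* and *Mylpf*, passed only through their WT signals, with 49.6 and 69.1 in Tg. The part of mesothelial and brown adipocyte cells in the values of *Igf2*, *Igfbp2* and *Igfbp7*, the IGF genes over 0.3, was not tested.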

How the data were processed

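Perigonadal WAT of PeriA Tg and WT mice was measured on 2 Affymetrix Mouse Genome arrays, 1 for each genotype, with the genotype taken from the sample labels. The deposited values are intensity signals that the authors obtained from GeneChip Operating Software, and the submitters' notes name MAS5. Each array was scaled as a whole, and without its lowest and highest 2% of signals each had a mean of 500.0. The Present-call step of the methods is not part of the deposited table, and the filter at 98.2 stands in for it.

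Signal log ratios were taken from these signals without a pseudocount. Of 45037 probe sets other than the 64 controls, 34945 had 1 gene symbol in the platform annotation, 932 had several and 9160 are not listed there. With 1 array per genotype there is no test. The 10 genes were given by name, and the related lists and markers were chosen with earlier results of these data known. The rule named all 10 genes and, of each list, up to 4 genes with the largest absolute values and the partners of the 10 genes. In addition, *Igfbp1*, *Igf2bp1*, *Igf2bp2*, *Htra1*, *Stc2*, *Ctsd*, *Stat5b*, *Foxo1*, *Lep*, *Adipoq*, *Krt18*, *Elovl3*, *Dio2*, *Pvalb* and *Mylpf* were named after their values were seen. The code for the gene choice was tested on simulated data without noise. This checks the code and not which probe set reads a gene best. The alternatives were median centring, quantile normalization, a pseudocount of 25.1, a floor of 56.9, no filter, a stricter filter at 470.5, the median over probe sets, the second-brightest probe set and the brightest one without a suffix. Python 3.11.15, numpy 2.4.6, pandas 2.3.3 and matplotlib 3.10.9 were used. The number of arrays limits the precision. Protein sequences, scanner files and detection calls were not used here.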

Additional observations from a re-analysis of the deposited data

How the results depend on the processing

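No paired analysis was possible because each genotype has 1 array. Of 82 values of the 10 genes under 9 alternatives, 80 moved by less than 0.41, the SD over probe sets within a gene. Many of the 82 could not move. No filter, the stricter filter and the floor kept the brightest reading of each gene that was left, and centring shifted all values by 0.0044. The bound of 0.41 is also larger than the threshold of 0.3. On second-brightest probe sets, which 7 of the genes have, *Igfbp7* turned to -0.050 and *Igf2r* had -0.006. *Igfbp5* had -1.35 there (-0.70 as the median of its probe sets). The median of these 7 genes was -0.050, with 1 gene over 0.3 and 2 under -0.3. Over all 5260 genes with such a probe set, the median was -0.03, with 889 over 0.3 and 1361 under -0.3. With the stricter filter, 8 genes were left, of which 1 was over 0.3 and 1 under -0.3, and their median was 0.05. Of all 7180 genes left, 1015 were over 0.3 and 827 under -0.3, with a median of 0.04. With the median over probe sets, 2 of 10 genes were over 0.3 and 2 were under -0.3, against 1717 and 2267 of all 11597 genes. Median centring, the floor and no filter gave 3 of 10 genes over 0.3 and 1 under -0.3. Over all genes these counts were 1895 and 1988 of 11587 with centring, 1929 and 1963 of 11587 with the floor, and 4468 and 4548 of 18193 without a filter. Quantile normalization and the pseudocount gave 2 of 10 genes over 0.3 and 1 under -0.3. Of all 11587 genes, 2099 and 1816 were past the thresholds with the first, and 1767 and 1818 with the second. Without a suffix, 7 of the IGF genes were left, with 2 over 0.3 and 1 under -0.3, against 1723 and 1804 of all 9972 genes. Among all genes past the thresholds, 49.6% were higher in Tg, and 39.5% on second-brightest probe sets. Saturation of the brightest probe sets was not tested.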

Other observations

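Downstream of both receptors, 14 of 16 genes of the PI3K, AKT and FOXO list passed the filter, with 2 over 0.3, 2 under -0.3 and a median of -0.04. *Akt2*, the AKT kinase of insulin action in fat, had 3169 in Tg and 2347 in WT, or 0.43 as a signal log ratio, whereas its other probe sets had -0.26 and -0.25. *Pdpk1*, the kinase that activates AKT, had 2411 in Tg and 1889 in WT (0.35), and its other probe set had 0.49. *Rptor*, the defining subunit of mTORC1, had 386.8 in Tg and 571.1 in WT (-0.56), and *Tsc2*, an inhibitor of this complex, had 571.3 in Tg and 745.0 in WT (-0.38). *Foxo1*, a transcription factor that AKT keeps out of the nucleus, had 2424 in Tg and 2208 in WT (0.14), but its other passing probe sets had -0.29 and -0.27.

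Of *Igf1r* and *Igfbp4*, 5 pairs of probe sets were each designed from 1 source sequence. Both probe sets of each pair had a signal log ratio of the same sign, although the dimmer probe set of 1 *Igf1r* pair was under the filter. The probe sets of a pair read the same pools and the same source sequence, so that they are not independent readings. The signs differed in the pair of *Igf2*, whose dimmer probe set was far under the filter.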
